A study of Homo sapiens with 30 samples.

Results

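SAP30 and RNA polymerase II (Pol II) were both mapped in parental MDA-MB-231 cells, and the protein-coding genes were sorted by which of these proteins had a peak at their promoters. Of 20098 genes on the autosomes and chromosome X, 11356 (56.5% of all genes) had both, 994 (4.95%) had SAP30 without Pol II and 274 (1.36%) had Pol II without SAP30. The remaining 7474 genes (37.2%) had neither. Summits within 1000 bp of each other were merged, and a gene counted for a protein when a merged region with a summit of both replicates lay at one of its start sites, so that 12350 genes (61.4%) counted for SAP30 and 11630 (57.9%) for Pol II.

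MDA-MB-231 is an established triple-negative breast cancer line, and the parental cells carried no knockout. Chromatin was cross-linked with formaldehyde, sonicated and immunoprecipitated with a SAP30 antibody (Bethyl Laboratories) in 2 libraries and a Pol II antibody (Abcam) in 2 libraries, which were then sequenced (ChIP-seq). The study describes the numbers in its legends, n = 2 here, as biological samples or experiments. It does not state that the replicates came from separate cultures, so the spread between them may be technical. Lists of SIN3A, SIN3B, H3K4me3 and H3K9Ac from the same parental cells, and of Pol II from the SAP30-KO1 line, a CRISPR/Cas9 knockout kept as a mixture of single-cell clones, served as readouts that did not define the classes. Total histone H3 and input libraries were not analysed here.

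SAP30 is a subunit of the SIN3 complex, in which the scaffolds SIN3A and SIN3B hold the histone deacetylases HDAC1 and HDAC2. The complex is best known as a corepressor brought to DNA by sequence-specific factors, yet it is also found at active promoters. Pol II transcribes protein-coding genes, and at many of them it pauses shortly downstream of the start site, where it gives a sharp ChIP-seq peak. H3K4me3 marks the promoters of active and poised genes, and H3K9Ac is an acetyl mark of active promoters and enhancers that deacetylases remove.

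The SAP30 lists held 35001 and 35007 summits and the Pol II lists held 20736 and 23002, and the depth behind them is unknown. Each summit carries the −log10 of a q-value, which depends on depth and enrichment. It was therefore used only as a rank within its own list, from 0 (best) to 100 (last). A gene's rank was that of its best summit within 1000 bp of a start site. Ranks of the same genes correlated between replicates with a Spearman coefficient of 0.86 for SAP30 (11284 genes with both) and 0.86 for Pol II (11329 genes), a description across genes that are not independent. The line's labelled identity was checked by its promoters. Of 18 mesenchymal genes 17 had both proteins (94.4%, beside 56.5% of all genes), TWIST1 being the exception. Of 20 luminal genes 9 had both, 4 had SAP30 without Pol II and 7 had neither, CDH1, ESR1 and GATA3 among them. The 9 luminal genes with both, KRT8 included, had a median Pol II rank of 11.2, against 16.2 for the mesenchymal genes, so some luminal promoters carried strongly ranked Pol II. None of the 414 olfactory receptor genes had either protein, and 12 of 14 leukocyte markers had neither.

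Among the genes with SAP30, 92.0% also had Pol II, and among the genes with Pol II, 97.6% also had SAP30. Only 3.54% of genes without SAP30 had Pol II. Taking 1 library of each protein at a time, the 4 possible pairs gave 91.1 to 93.4% and 97.8 to 98.2%. In those pairs 824 to 1120 genes had SAP30 alone, 11489 to 11701 had both and 214 to 268 had Pol II alone. The order of the class sizes was thus the same in every pair, but it depended on the processing. With summits extended by 100 bp in place of 500 bp, 1590 genes had SAP30 alone and 1665 had Pol II alone. At 11337 of the 11356 genes with both (99.8%), the proteins lay at the same start site, and 19 genes, L1CAM among them, had them at separate start sites.

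SAP30 regions lay away from promoters more often than Pol II regions did. Of the merged SAP30 regions, 39.3% and 42.4% in the 2 libraries were at promoters of protein-coding genes, compared with 65.7% and 60.2% of the Pol II regions. The means were 40.8% ± 2.19 and 62.9% ± 3.88 (SD, n = 2 each), a difference of −22.1 percentage points with no overlap between the groups. A two-sided exact permutation test gave p = 0.33, the smallest value that 2 libraries against 2 allow, so the design cannot reach a p below 0.05. The SAP30 lists were the longer, and with lists of equal length the share differed by −7.16 percentage points. SAP30 nevertheless reached more genes, 12609 and 12525 against 11732 and 11940 for Pol II, a difference of 731 (exact permutation p = 0.33). The difference was 122 with lists of equal length and 170 with a promoter window of 500 bp. Consensus SAP30 regions had a Pol II region over them at 10388 of 11742 promoter sites (88.5%) and at 3595 of 13054 sites elsewhere (27.5%). Consensus Pol II regions had SAP30 over them at 96.7% of promoter sites and at 78.7% of the others.

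At the promoters that carried both, the proteins did not peak at the same base. The median SAP30 summit was 53 and 45 bp downstream of the nearest start site in the 2 libraries, whereas the median Pol II summit was 22 and 21.5 bp downstream. The difference of the means, 49.0 ± 5.66 against 21.8 ± 0.354 bp (SD, n = 2 each), was 27.2 bp, and the groups did not overlap (exact permutation p = 0.33). Pol II summits were the more tightly placed, with 71.6% and 71.8% within 100 bp of a start site, compared with 46.9% and 49.5% of SAP30 summits. Gene by gene, the SAP30 summit lay a median of 49 to 55 bp downstream of the Pol II summit over the 4 library pairs. It was on the downstream side at 63.4 to 66.1% of genes.

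Pol II was present at nearly every promoter where SAP30 ranked well, and less often at the foot of the SAP30 list. When the SAP30 genes were ordered by mean rank and cut into 10 groups of 1225 or 1226, the share with Pol II stayed between 97.4% and 99.1% in the first 7 groups. It was 95.1% in the eighth and 86.0% in the ninth, and fell to 50.8% in the last, whose SAP30 ranks ran from 42.6 to 96.8. The single Pol II lists gave 54.4% and 60.7% in that last group. The median Pol II rank was 19.1 in the first group, 16.2 in the second, 25.9 in the sixth and 54.3 in the last, so the best SAP30 promoters were not those with the best Pol II.

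**Figure D1:**
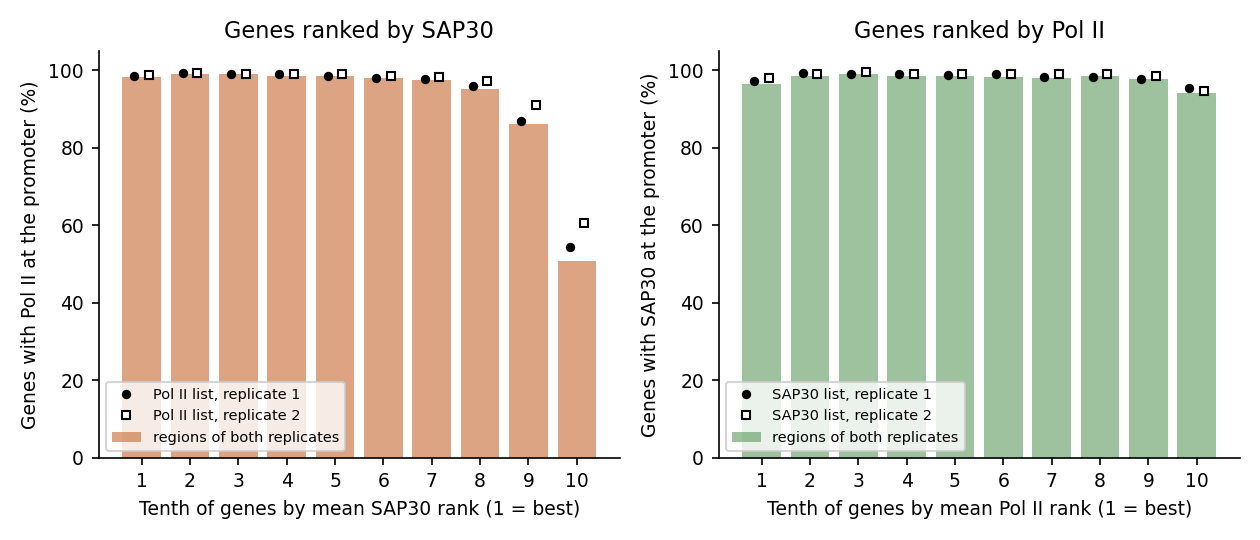
Share of genes (%, vertical axis) with Pol II in 10 groups of the genes ordered by SAP30 rank, and with SAP30 in 10 groups of the genes ordered by Pol II rank, with bars for regions of both replicates and points for the single lists. Pol II falls from 98.3% in the best SAP30 group to 50.8% in the last, while SAP30 stays between 94.0% and 99.1% in every Pol II group.

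In the opposite direction the Pol II rank separated the genes little. SAP30 was at 96.5% of the best of 10 Pol II groups, at 97.8 to 99.1% of the next 8 and at 94.0% of the last. The first group had a lower SAP30 share than each of the next 8, and its missing members included immediate early and inducible genes described further on. Across the 11262 genes with both and a rank in all 4 lists, the ranks correlated with a Spearman coefficient of 0.40, and the 4 library pairs gave 0.37 to 0.41. The coefficient was 0.10 over the 6098 genes that also had SIN3A and 0.41 over the 5164 that did not. SIN3A itself followed SAP30 rank, from 99.5% of genes in the best of 10 SAP30 groups to 0.734% in the last. The 2 subsets thus cover different ranges of SAP30 rank, and a part of SIN3A in the relation was not tested. At 70.8% of the ranked genes SAP30 ranked better in its list than Pol II did. The lists differ in length and content, so this share serves as the background for the gene groups below.

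The SAP30 promoters without Pol II had weak SAP30. Their median SAP30 rank was 46.1 and 49.7 in the 2 libraries, against 15.4 and 16 for genes with both. Of the 994 genes, 643 (3.2% of all genes) had no Pol II summit within 1000 bp in either list, 347 had one in 1 list and 4 had one in each list in separate regions. The nearest Pol II summit was a median of 35140 and 20943 bp away, and at 593 genes (59.7%) it was beyond 3000 bp in both lists. H3K4me3 was nonetheless at 87.3% of the 994 promoters and H3K9Ac at 69.9%, beside 63.9% and 61.7% of all genes. Both shares were below those of genes with both proteins, 98.7% for H3K4me3 and 98.7% for H3K9Ac. Both marks were at 642 genes (64.6%), H3K4me3 alone at 226 (22.7%), H3K9Ac alone at 53 (5.33%) and neither at 73 (7.34%). Whether these promoters carried Pol II below the detection of the lists was not tested.

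The SIN3 scaffolds were rarer at SAP30 promoters without Pol II. SIN3A was at 7.44% of them and at 54.0% of genes with both, beside 31.5% of all genes. SIN3B was at 21.1% and 88.3%, beside 52.0% of all genes. Both shares fell with SAP30 rank, SIN3A from 99.5% in the best of the 10 SAP30 groups to 0.734% in the last and SIN3B from 98.8% to 19.3%. Within bands of equal SAP30 rank the gap narrowed for SIN3A, but not evenly. With a SAP30 rank of 0 to 10, SIN3A was at 84.1% of 44 genes without Pol II and at 94.7% of 3538 genes with both. The gap for SIN3B was similar in that band, at 86.4% against 98.8%. The SIN3A gap was widest for ranks of 10 to 20, where it slightly exceeded that of SIN3B (74.5% against 95.9%). For ranks of 20 to 30 SIN3A was at 10.6% against 22.3%. For SIN3B a wide gap remained in the middle bands, at 30.6% against 71.7% for ranks of 30 to 40 and 11.9% against 38.7% for ranks of 40 to 60. H3K9Ac in the best band was at 68.2% of the genes without Pol II and 99.0% of those with it. These shares are descriptions over genes, with no test.

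**Figure D2:**
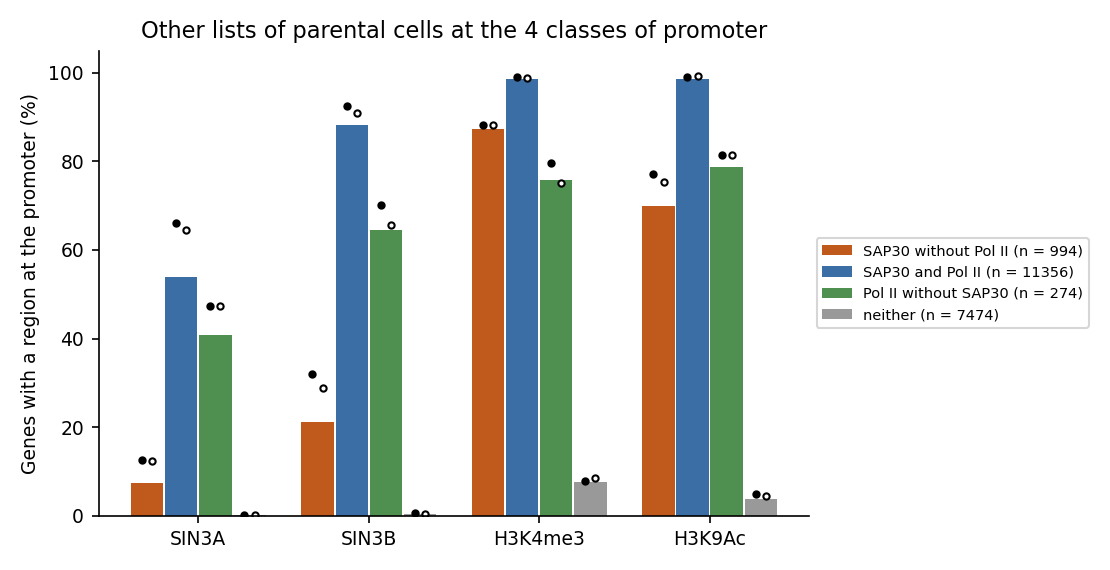
Share of genes (%, vertical axis) with a region of SIN3A, SIN3B, H3K4me3 or H3K9Ac in parental cells, by class. SIN3B was at 21.1% of promoters with SAP30 without Pol II, 88.3% of those with both and 64.6% of those with Pol II without SAP30.

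The Pol II lists of the SAP30-KO1 line, which played no part in the classes, had Pol II at 9.05% of the genes with SAP30 without Pol II, 92.6% of those with both, 75.2% of those with Pol II without SAP30 and 0.415% of those with neither, beside 54.0% of all genes. Where neither parental list had a Pol II summit (643 genes) the share was 3.42%, and where 1 list had one (347 genes) it was 18.4%.

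The promoter sequence of the classes was read from the reference genome (GRCh37), from 250 bases before to 50 bases after the Ensembl canonical start site. Genes with SAP30 without Pol II, with both and with Pol II without SAP30 all had GC-rich promoters, with a median GC content of 67.0%, 66.7% and 66.8%, against 55% where neither was found. The median ratio of observed to expected CpG was 0.763, 0.869, 0.834 and 0.331 in the same order. The motif CCGGAAG, the core of ETS factor sites, occurred on either strand at 6.04% of promoters with SAP30 without Pol II, 21.8% of those with both and 9.12% of those with Pol II without SAP30, beside 14.0% of all promoters. TATAAA, the usual TATA box, occurred at 7.34%, 4.42% and 13.5%, beside 9.79% of all promoters. GGGCGG, a GC box, occurred at 71.9%, 76.6% and 74.1%, beside 61.0%.

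Of 12 neuronal marker genes, SNAP25 and SYT1 had SAP30 without Pol II (16.7%, beside 4.95% of all genes), 2 had both, 1 had Pol II without SAP30 and 7 had neither. The gene at the top of both SAP30 lists, ranked 0 and 0 in first place, was NPAS4 (chr11:66188506-66194178, plus strand), an activity-regulated transcription factor of neurons. Its summit lay 753 bp downstream of the start site in both libraries, inside an intron, and the nearest Pol II summits were 17731 and 17690 bp away. SIN3A and SIN3B were present there, and H3K4me3 and H3K9Ac were not. The sequence under this summit matched RE1, the element bound by the repressor REST, which keeps neuronal genes silent outside neurons and is known to bring in SIN3 through its corepressors. RE1 was then searched for as TTCAGCACC, 2 bases of any kind and GGACAGCGC, allowing 2 mismatches of 18 letters on both strands, in 201 bp centred on the mean SAP30 summit. Motif, window and mismatch limit were chosen after values had been seen.

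Of the 994 SAP30 promoters without Pol II, 973 had a SAP30 rank in both lists, and 17 of these (1.75%) had an RE1 match, as had 5 of 11284 promoters with both (0.0443%), beside 0.0597% of windows of the same length at the start sites of all genes. With 1 mismatch allowed, the counts were 10 (1.03%) and 2 (0.0177%). None of the 17 genes had a Pol II summit in either list, and none had a consensus H3K9Ac region. MMP24 and GOLGA7B, for example, had an H3K9Ac summit in the first list alone, ranked 89.1 and 55.1. In the whole class 643 of 994 genes had no Pol II summit in either list and 69.9% had H3K9Ac. By consensus regions, H3K4me3 was at 5 of the 17 genes, SIN3A at 6 and SIN3B at 2. The mean SAP30 ranks of the 17 ran from 0 to 85.5. The sites below carry this result. They are given 5′ to 3′ with 4 flanking bases on each side, and capitals mark the letters that match RE1. The first 8 are of the 17 SAP30 promoters without Pol II, and SYP and VGF, of neuronal vesicle proteins, are of the 5 promoters with both.
NPAS4 (chr11:66189259-66189286, minus strand, intron): tgggTTCAGaACCatGGACAGaGCcata
MMP24 (chr20:33814993-33815020, plus strand, intron): ctgcTTCAGCACCgcGGACAGgGgcagc
XKR7 (chr20:30556389-30556416, plus strand, coding exon): cgccaTCAGCACCaaGGACAGCGCcggc
GOLGA7B (chr10:99609839-99609866, plus strand, untranslated exon): ctgccTCAGCACagcGGACAGCGCcgcg
HTR5A (chr7:154861786-154861813, plus strand, outside protein-coding genes): gagaggCAGCACCgtGGACAGCGCcaac
BARHL1 (chr9:135457559-135457586, minus strand, outside protein-coding genes): gcccgTCAGCACCgtGGACAGCGCctcc
CHGB (chr20:5892346-5892373, plus strand, intron): gccggTCAGCACCgcGGACAGCGCcagc
SNAP25 (chr20:10200316-10200343, plus strand, intron): acctTTCAGCACCggGGACAGCGgtccg
SYP (chrX:49056578-49056605, minus strand, intron): gcgcTcCAGCACCgtGGACAGaGCccgc
VGF (chr7:100808836-100808863, plus strand, untranslated exon): cggcTTCAGCACgctGGACAGCGCccgc

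SAP30 ranks at these sites spanned the list. MMP24, a membrane-bound metalloproteinase, ranked 6.89 and 4.18 and XKR7 ranked 8.52 and 6.58. HTR5A, a serotonin receptor, ranked 24.6 and 8.72, and BARHL1, a homeobox factor, ranked 25.7 and 21.6. CHGB, a granin of secretory vesicles, ranked 27.4 and 51.1, and SNAP25, a synaptic fusion protein, ranked 85.3 and 85.7, near the end of both lists. NPAS4 had 4 matching sites within its window, more than any of the other 16 genes. SYP carried all of SAP30 (3.65 and 0.943), Pol II (22.3 and 12.2), H3K4me3 and H3K9Ac, whereas VGF had low ranks for SAP30 (73.9 and 53.5) and Pol II (94.4 and 88.2).

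The other SAP30 promoters among the 10 at the head of the class without Pol II were of mixed function. USP2, a ubiquitin-specific protease, ranked 0.46 and 0.197 for SAP30, had all 4 other marks and proteins, and was 29257 and 29151 bp from the nearest Pol II summit. PGBD5, a transposase-derived gene, ranked 0.731 and 1.06, BICDL1, a dynein adaptor, ranked 1.29 and 1.05, and C11orf97 ranked 1.97 and 1.9, and none of these 3 had H3K9Ac. DNAJC6, the neuronal auxilin, ranked 2.09 and 0.803 with Pol II 10238 and 10281 bp away. SCRT1, a neuronal zinc finger repressor, was another of the 17 genes with an RE1 match, ranked 1.67 and 2.34 and had SIN3A but neither SIN3B nor a histone mark. Its SAP30 summits lay in an intron of the neighbouring gene SLC52A2. CFAP299, a ciliary gene, ranked 2.05 and 1.03. At ENOPH1, a methionine salvage enzyme, and the readthrough gene ZFP91-CNTF, Pol II was just outside the 1000 bp window, at 1124 and 1238 bp and at 1192 and 1086 bp. Both had Pol II at the promoter in the SAP30-KO1 lists.

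**Figure D3:**
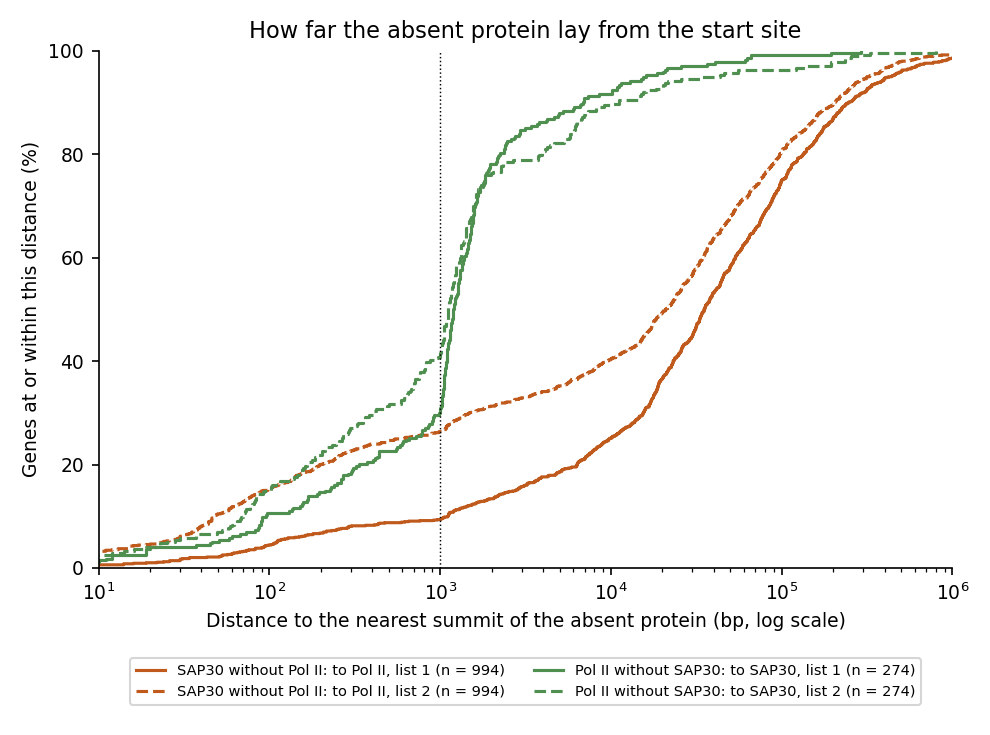
Cumulative share of genes (%, vertical axis) by the distance in bp (log axis) from a start site to the nearest summit of the protein that was not called there, with 1 line per library. SAP30 was near most genes with Pol II without SAP30 (median 1197 and 1116 bp), whereas Pol II was far from most genes with SAP30 without Pol II (median 35140 and 20943 bp).

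Genes of motile cilia were also present in both classes that held SAP30. FOXJ1, the transcription factor that switches on the motile cilia programme, ranked 4.33 and 3.46 for SAP30, with Pol II 37573 and 36716 bp away. The X-box, the site of the RFX factors that serve ciliary genes, was searched for as GTTGCCA followed directly by TGGCAAC, with up to 2 mismatches of 14 letters. It was at 14 of 973 SAP30 promoters without Pol II (1.44%, 13 distinct sites), at 82 of 11284 promoters with both (0.727%, 66 distinct sites) and in 0.771% of start-site windows of all genes. Of the 14 genes, 8 had no Pol II summit in either list, beside 643 of the 994 genes of the whole class and 17 of 17 for RE1. The sites shown are those of FOXJ1 and C7orf57, far from Pol II in both lists, of CFAP251, which had a Pol II summit 74 bp from a start site in the first list alone, and of KIF9, a kinesin gene with both, and capitals mark matching letters.
FOXJ1 (chr17:74137377-74137398, minus strand): gagcGTcGCCATGGCAgCagga
C7orf57 (chr7:48075087-48075108, plus strand): agccGTTGCCcTGGCgACgccg
CFAP251 (chr12:122356462-122356483, plus strand): ggcgGTTGCCATGGggACggag
KIF9 (chr3:47324071-47324092, minus strand): acccGTTGCCATGGCgACtatg

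C7orf57 ranked 5.56 and 9.18 for SAP30. KIF9 ranked 0.0943 and 0.151 for SAP30, among the best of either list, against 26.6 and 22.0 for Pol II. The neighbouring gene KLHL18 had the same X-box site and the same SAP30 ranks.

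Some gene groups of other lineages had more than the 4.95% of all genes among the SAP30 promoters without Pol II, and others did not. Of 126 developmental transcription factors, 16 (12.7%, beside 4.95% of all genes) were in this class, 22 had both, and IRX5, SIX4 and SOX12 had Pol II without SAP30. No Pol II summit was in either list at 13 of the 16, beside 643 of the 994 genes of the class. The 16 included DLX3 (72.6 and 53.4), NKX2-1, PAX9, TBX1 and SOX2 (37.6 and 50.9), a pluripotency factor. Of the luminal genes, FOXA1 (52.1 and 44.4), PGR (90.5 and 99.1), TFF1 (66.4 and 75.4) and ESRP1 had SAP30 without Pol II, with no Pol II summit in either list. Interferon-stimulated genes gave 6 of 33 (18.2%), namely GBP1, IFIH1, ISG20, MX2, OAS3 and OASL, while 18 had both. Of these 6, ISG20 alone lacked a Pol II summit in both lists, and the other 5 had one within 1000 bp in the second Pol II list, so their class depends on the first Pol II library. Among collagens there were 5 of 44 (11.4%), COL1A1 included, 4 of them with no Pol II summit in either list. Of 39 HOX genes 6 had both and HOXC5 alone (2.56%) had SAP30 without Pol II. The class held 1 of 14 leukocyte markers (7.14%) and 1 of 13 endothelial and fibroblast markers (7.69%). It held 2 of 55 keratins (3.64%), 1 of 53 clustered protocadherins (1.89%) and 0 of 414 olfactory receptors.

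The 274 genes with Pol II without SAP30 mostly had SAP30 close by. In 114 (0.567% of all genes) neither SAP30 list had a summit within 1000 bp, in 122 one list did and in 38 each list did but in separate regions. The nearest SAP30 summit was a median of 1197 and 1116 bp from a start site. It was within 3000 bp in both lists at 206 genes (75.2%), where it was downstream in both at 78, upstream in both at 46 and on different sides at 82. These 206 promoters had a median Pol II rank of 24.3, close to the 25.4 of genes with both, and SIN3A was at 53.9% and SIN3B at 83.0% of them. At 32 genes (11.7% of the 274) SAP30 was beyond 3000 bp in both lists. Their median Pol II rank was 67.8, SIN3A was at 0 of them and SIN3B at 1.

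The 10 best-ranked Pol II promoters without a SAP30 summit in either list belonged to genes of differing function. CEBPB (chr20:48807367-48809205), an inflammatory transcription factor, ranked 0.694 and 0.196 for Pol II, and its nearest SAP30 summits were 1583 and 1615 bp downstream of the start site. SOCS3, a feedback inhibitor of cytokine signalling, ranked 0.711 and 0.743 with SAP30 2736 and 2655 bp downstream. EIF4A1, a translation initiation helicase, had SAP30 1048 and 1114 bp downstream, and INSIG1, a sterol regulator, had it 1158 and 1109 bp downstream. DUSP5, an ERK phosphatase, had SAP30 1506 and 1473 bp upstream. JAG1, a Notch ligand, and PPP1R15A, a phosphatase subunit of the stress response, had SAP30 2410 and 2389 bp and 2367 and 2281 bp downstream. NUFIP2, FSCN1 and FZD8 completed the 10, with SAP30 summits 1132 and 1034, 1149 and 1079, and 1021 and 1021 bp away. SIN3B, H3K4me3 and H3K9Ac were at the promoters of all 10, and SIN3A was at 8, the exceptions being NUFIP2 and FSCN1.

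Immediate early genes, which are transcribed within minutes of a stimulus, gave 4 genes of 24 with Pol II without SAP30, FOS, JUN, JUNB and NR4A3, beside 1.36% of all genes. FOS ranked 1.8 and 2.99 for Pol II, and its SAP30 summits were 1462 and 1596 bp upstream. JUN ranked 0.796 and 1.07, JUNB 0.0965 and 0.109 and NR4A3 44.8 and 56.7 for Pol II. JUN, JUNB and NR4A3 had a SAP30 summit within 1000 bp in the second list alone, ranked 14.8, 3.07 and 6.05, so their class depends on which SAP30 library is used, and FOS alone lacked one in both lists. EGR2 had SAP30 (35 and 19) without Pol II in either list. IER2 was counted in the same class, although within 1000 bp each protein had a summit in its first list alone, ranked 2.41 for SAP30 and 3.58 for Pol II. The other 18 of the 24 had both, with median ranks of 5.27 for Pol II and 13.4 for SAP30, and SAP30 ranked better at 6 of the 17 ranked genes. EGR1 ranked 2.98 and 7.56 for Pol II against 26.8 and 16.3 for SAP30, IER3 ranked 0.0627 and 0.174 against 20.1 and 26.6, and JUND ranked 0.0772 and 0.135 against 11.8 and 8.64. The upstream 150 bases of FOS are shown with those of a histone gene and a mitotic gene, in which the order of the ranks differs. All are on the plus strand and end at the base before the canonical start site. Capitals mark matches on either strand to TATAAA (the usual TATA box), to CCAAT (the CCAAT box, bound by NF-Y) and to GGGCGG (the GC box).
FOS (chr14:75745381-75745530, plus strand): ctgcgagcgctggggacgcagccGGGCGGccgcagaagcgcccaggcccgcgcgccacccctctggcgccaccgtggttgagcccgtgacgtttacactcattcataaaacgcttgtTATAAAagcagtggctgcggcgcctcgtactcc
H1-4 (chr6:26156407-26156556, plus strand): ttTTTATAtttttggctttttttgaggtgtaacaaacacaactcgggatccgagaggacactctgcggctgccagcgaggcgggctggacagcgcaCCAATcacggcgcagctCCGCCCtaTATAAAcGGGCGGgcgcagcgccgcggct
CCNB1 (chr5:68462827-68462976, plus strand): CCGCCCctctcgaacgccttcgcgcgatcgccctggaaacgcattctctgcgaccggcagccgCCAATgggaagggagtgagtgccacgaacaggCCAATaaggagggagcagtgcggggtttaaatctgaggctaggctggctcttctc

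Of the gene groups with 10 or more genes with both, the mitotic genes had the best median SAP30 rank. All 33 mitotic genes had both proteins. Their median rank was 1.51 for SAP30 and 18.4 for Pol II, beside 15.9 and 25.4 over all ranked genes, and SAP30 ranked better than Pol II at 31 of 33. UBE2C, the ubiquitin-conjugating enzyme of the anaphase-promoting complex, was in place 7 and 23 of the SAP30 lists (0.0171 and 0.0628) and ranked 13.2 and 18.9 for Pol II. AURKB, the kinase of the chromosomal passenger complex, ranked 0.0486 and 0.0857 against 7.63 and 5.05. CCNB1, cyclin B1, ranked 0.306 and 0.254 against 20.3 and 13.0, and PLK1, polo-like kinase 1, ranked 1.01 and 0.887 against 41.1 and 26.4. In each of these genes the worse of the SAP30 ranks was better than either Pol II rank. CCAAT was at 30 of the 33 promoters (90.9%, beside 35.9% of all promoters) and TTTGAA, the CHR element of mitotic promoters, at 25 (75.8%, beside 11.6%). These match counts describe the letters of the promoters, and binding of the factors was not measured.

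DNA replication genes followed the same pattern. Of 38 such genes 36 had both, with a median rank of 4.57 for SAP30 and 30.7 for Pol II, and SAP30 ranked better at 35 of 36. MCM10, a replication initiation factor, was in place 3 and 14 of the SAP30 lists and ranked 47.9 and 26.2 for Pol II. E2F1, a cell cycle transcription factor, ranked 0.0686 and 0.397 against 53.2 and 29.5, and MCM7, a helicase subunit, ranked 0.194 and 0.297 against 32.0 and 26.5. The other 2 genes were counted as SAP30 without Pol II, but the Pol II lists did not lack them. E2F2 had Pol II in the second list, and E2F3 had a Pol II summit in each list, ranked 6.13 and 4.0, too far apart to form 1 region.

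**Figure D4:**
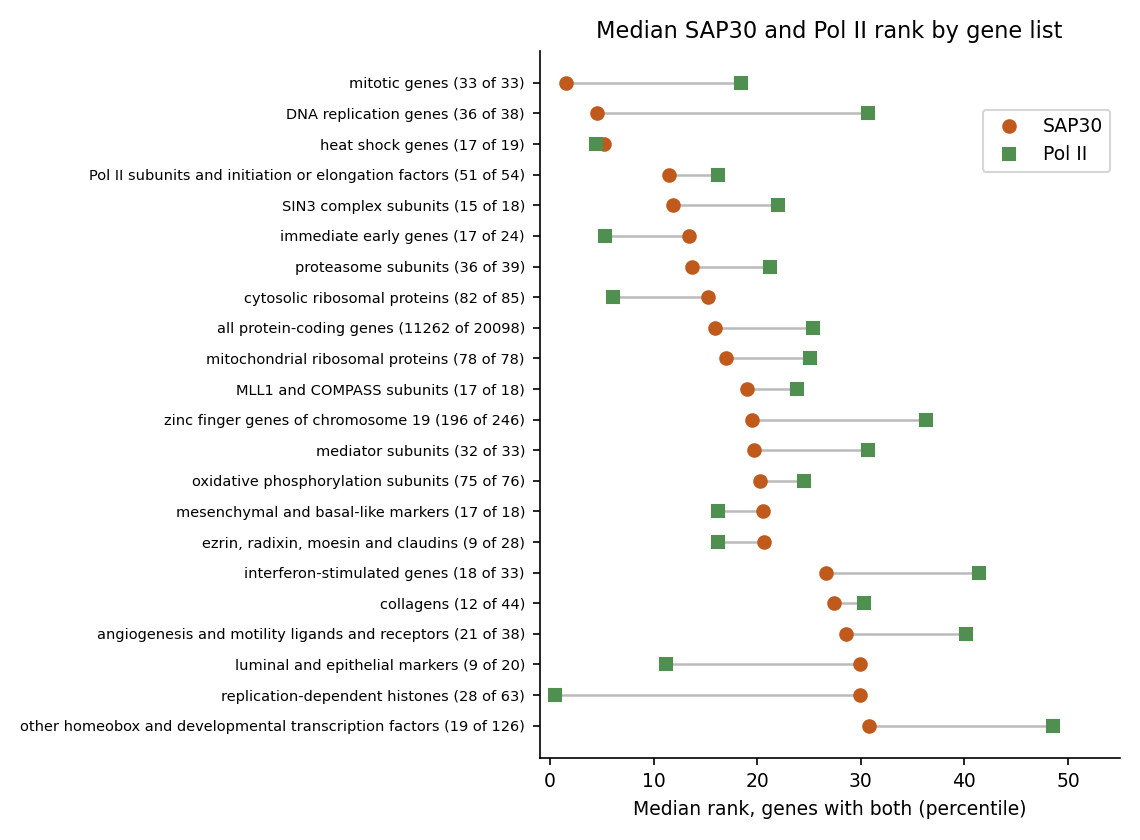
Median SAP30 rank and median Pol II rank (percentile in the list, 0 best) of the genes with both proteins, as circles and squares for each gene group with 9 or more such genes, whose number is given in brackets. Mitotic genes have a median of 1.51 for SAP30 and 18.4 for Pol II, and replication-dependent histone genes have 29.9 and 0.484.

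Replication-dependent histone genes lay at the opposite extreme of the gene groups examined. Of 63 genes 29 had both (46.0%, beside 56.5% of all genes). In the 28 with all 4 ranks the median was 0.484 for Pol II and 29.9 for SAP30. SAP30 ranked better than Pol II at 0 of 28. Mean ranks over the replicates ran from 12.1 to 70.5 for SAP30 and from 0.125 to 17.2 for Pol II. H1-4 ranked 0.145 and 0.104 for Pol II and 35.9 and 20.8 for SAP30, and H3C2 ranked 0.183 and 0.161 against 5.24 and 22.0. Another 5 histone genes (7.94%, beside 4.95% of all genes) had SAP30 without Pol II, namely H2AC4, H2BC3, H2BC5, H3C13 and H4C1. Pol II without SAP30 was at 5 (7.94%, beside 1.36%), namely H2AC1, H2AC14, H2AC19, H2BC1 and H2BC14, and 24 had neither. TATAAA was at 43 of the 63 promoters (68.3%, beside 9.79% of all promoters) and CCAAT at 54 (85.7%, beside 35.9%). Histone genes are near-identical and crowded in clusters, and how the alignment placed reads among the copies is not given in the sources used here, so single histone genes are uncertain.

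**Figure D5:**
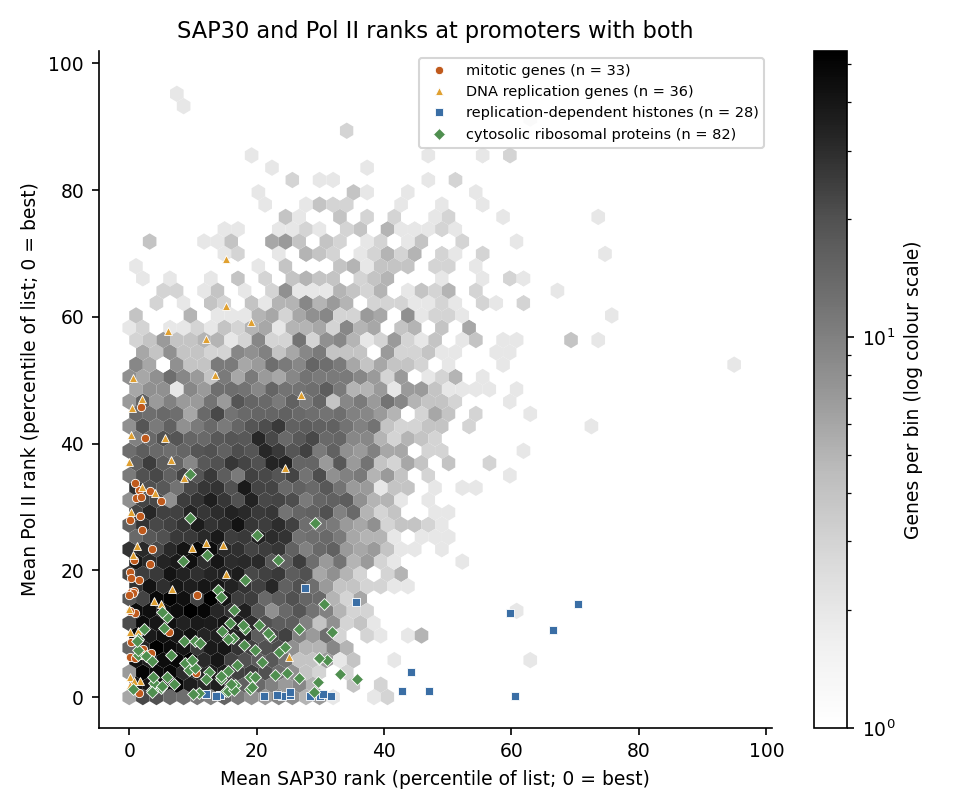
Mean SAP30 rank (horizontal axis) and mean Pol II rank (vertical axis), both percentiles in the list with 0 best, of the 11262 genes with both and a rank in all 4 lists, as hexagons shaded by the number of genes (log scale) with 4 gene groups as coloured points. The Spearman coefficient is 0.40, the mitotic genes lie at the best SAP30 ranks and the histone genes at the best Pol II ranks.

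Between these extremes stood the housekeeping groups. Of 85 cytosolic ribosomal protein genes 82 had both, with a median rank of 15.3 for SAP30 and 6.07 for Pol II, and SAP30 ranked better at 21 of 82 (25.6%, beside 70.8% of all ranked genes). All 78 mitochondrial ribosomal protein genes had both, with medians of 17.0 for SAP30 and 25.1 for Pol II, and all 76 oxidative phosphorylation genes did, with 20.3 and 24.5. Zinc finger genes of chromosome 19 had both at 196 of 246, and SAP30 ranked better at 161 of the 196. Heat shock genes ranked well in both, with medians of 5.21 for SAP30 and 4.45 for Pol II over 17 genes. HSPA8, a constitutive chaperone, ranked 9.84 and 1.95 for SAP30 and 0.41 and 0.413 for Pol II. HSF1, the master regulator of these genes, was in place 2 and 9 of the SAP30 lists and ranked 2.1 and 2.73 for Pol II. Its SAP30 summits lay 262 and 319 bp upstream of the start site, in a coding exon of the neighbouring gene BOP1.

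The genes that ranked best for both, by their best summit at any start site, were EEF1A1, WDR74, SLC7A5, PLEC and the shared promoter of POLR2L and TSPAN4. EEF1A1, translation elongation factor 1 alpha, ranked 0.02 and 0.0057 for SAP30 and 0.125 and 0.348 for Pol II, with all 4 summits in its untranslated exon. WDR74 held the first place of both Pol II lists, with those summits in or within 500 bp of the small nuclear RNA gene RNU2-2P. Its SAP30 summits (0.24 and 0.374) were in a coding exon, at another start site of the gene. PLEC, a cytoskeletal linker, likewise had its best SAP30 summits (0.797 and 0.486) and its best Pol II summits (0.82 and 0.722) at different start sites. The largest gaps with SAP30 better were at PER2, a circadian clock repressor (1.07 and 2.2 for SAP30 against 94.4 and 99.9 for Pol II), BBS5, a ciliary trafficking protein (6.25 and 9.44 against 94.4 and 96.1), VMAC, LRRC73 and MARCHF4. The largest with Pol II better were at PBLD, TMSB4X, H4C3, SLC6A8 and ARRDC3. TMSB4X, the actin-binding thymosin beta 4, ranked 0.969 and 0.735 for Pol II against 73.3 and 53.9 for SAP30. These genes were chosen by the gap, and PBLD (45.8 and 93.8) and ARRDC3 (93.4 and 33.3) differed widely between the SAP30 libraries.

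The genes that the study followed by expression fell in different classes. Of the 6 named as coactivated by SAP30, PDGFD and RDX had both, ADM2, CLDN1 and NOTCH3 had SAP30 without Pol II, and PDGFB had neither. RDX, an actin-membrane linker, ranked 4.55 and 1.54 for SAP30 and 5.34 and 17.2 for Pol II. PDGFD, a platelet-derived growth factor, ranked 24.8 and 50.6 for SAP30 and 75.4 and 52.8 for Pol II. CLDN1, a tight junction protein, ranked 38.3 and 31.8 for SAP30, with Pol II 191414 and 64056 bp away. NOTCH3 ranked 86.8 and 68.5 with Pol II 74987 and 74938 bp away. ADM2, an adrenomedullin, ranked 47.2 and 68.2 and had a Pol II summit in the second list, ranked 81.4. PDGFB had summits in the second list of each protein, ranked 61.8 for SAP30 and 69.7 for Pol II, and none within 1000 bp in the first. Consensus Pol II was thus at 2 of these 6 genes, beside 57.9% of all genes. The study chose the genes on these cells. It measured their mRNA by RT-qPCR and reported a decrease after loss of SAP30. The absence of a consensus Pol II region therefore does not show that a gene was silent. Whether Pol II lay at these promoters below the detection of the lists was not tested.

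Of the 3 genes named as corepressed, IPO13, an importin, ranked 4.5 and 2.81 for SAP30 and 19.8 and 12.6 for Pol II, and ARTN, a neurotrophic ligand, ranked 41.6 and 56.5 and 61.6 and 59.3. HSPA6, a strictly inducible chaperone, had SAP30 (28.2 and 37.0) without Pol II, whose nearest summits were 6314 and 6394 bp away. SAP30 itself carried both at its own promoter, with ranks of 1.36 and 5.12 for SAP30 and 10.2 and 5.4 for Pol II. Of the 18 genes of the SIN3 complex 15 had both. SIN3A had Pol II (58.3 and 50.6) without consensus SAP30, which was in the second list with a rank of 14.9, and ING2 was in the same class, while SAP25 had neither. SIN3B ranked 7.85 and 7.39 for SAP30 and 3.06 and 3.28 for Pol II. Of 38 angiogenesis genes 21 had both (55.3%, beside 56.5% of all genes). ADM2, ANGPT1 and NOTCH3 had SAP30 without Pol II (7.89%, beside 4.95%), and ADM, JAG1 and NOTCH1 had Pol II without SAP30 (7.89%, beside 1.36%). ADM ranked 0.772 and 0.791 for Pol II, with SAP30 in the second list (25.9). NOTCH1 had SAP30 in each list (10.7 and 29.4) but in separate regions.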

How the data were processed

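Peak summit lists of 14 libraries in 7 groups of 2 were used, 4 of them (SAP30 and Pol II, parental) to define the classes. The authors deposited, for each library, 1 bp summits whose score is a q-value on the −log10 scale. The submitters' processing notes name FastQC 0.11.2, Bowtie2 2.3.3.1, Picard, MACS2 2.1.0 and hg19. The input behind each list, the MACS2 options and the depth are not given in the sources used here, so peaks missed at low depth cannot be told from absent ones, and no interval for counting error could be given.

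Summits were extended by 500 bp and merged, so that those within 1000 bp formed 1 region, and a consensus region held a summit of both replicates. A region was at a promoter when its summits touched the 1000 bp around a start site of a basic transcript of a protein-coding gene in GENCODE release 44 lifted to GRCh37. Of 20098 genes, 19808 had an Ensembl canonical start site. Genes whose start sites are close can share regions. A start site of another gene lay within 2000 bp at 28.5% of genes with both, 11.4% with SAP30 without Pol II and 23.7% with Pol II without SAP30. Groups were compared over libraries by two-sided exact permutation tests, and values over genes are descriptions. Computation used Python 3.11.15, numpy 2.4.6, pandas 2.3.3, SciPy 1.17.1 and matplotlib 3.10.9, and the merging and classes were tested on simulated lists.

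The members and gene lists were chosen with earlier results of these data known. The genes named were the 10 with the best SAP30 rank and no Pol II summit, the 10 with the best Pol II rank and no SAP30 summit, the 5 best for both, the 5 with the widest rank gap in each direction, the genes the study followed, and list members as examples. Examples beyond the rules, such as UBE2C or FOXJ1, were picked after their values were seen. Alternatives were other extensions, promoter windows, list lengths and replicate rules, 1 start site per gene, genes without a neighbouring start site, each replicate left out and the replicate number as a block.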

Additional observations from a re-analysis of the deposited data

How the results depend on the processing

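The class with both was within 1.5 times of 11356 under all alternatives tried, and the 2 smaller classes were not. Genes with Pol II without SAP30 numbered 274, but 1665, 674 and 175 with summits extended by 100, 250 and 1000 bp, 647 and 150 with promoter windows of 500 and 3000 bp, 525 with lists limited to the length of the shortest (20736 summits) and 162 with regions of either replicate. Genes with SAP30 without Pol II numbered 994, but 1590 with the extension of 100 bp, 578 with lists of equal length and 2146 in the better-ranked 50% of each list. The extension of 100 bp thus made the class with Pol II without SAP30 the larger of the 2. With no summit of the absent protein in either list within 1000 bp or 3000 bp, alternatives chosen after seeing the data, the counts were 643 and 593 with SAP30 and 114 and 32 with Pol II. Leaving out each library in turn gave 744 to 1212 genes with SAP30 without Pol II and 189 to 334 with Pol II without SAP30.

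The share of Pol II genes with SAP30 (97.6%) was 84.5%, 94.1% and 98.5% with the extensions of 100, 250 and 1000 bp, 94.3% and 98.7% with windows of 500 and 3000 bp, 95.5% with lists of equal length, 96.3% in the better 50%, 98.7% with either replicate, 96.8% with 1 start site per gene and 97.2 to 98.4% without each library. The share of SAP30 genes with Pol II (92.0%) was 85.1% and 90.9% with extensions of 100 and 250 bp, 95.0% with lists of equal length, 80.9% in the better 50%, 90.2% over genes without a neighbouring start site and 90.4 to 94.0% without each library. The rank correlation (0.40) was 0.37 with lists of equal length, 0.27 in the better 50%, 0.43 without neighbouring start sites and 0.38 to 0.41 without each library.

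The 3 differences between the libraries of SAP30 and Pol II kept their direction in every alternative. The promoter share differed by −24.8 to −19.3 percentage points without each library and by −7.16 with lists of equal length. In the better-ranked 50% of each list it differed by −21.0. Why equal length narrowed the difference was not tested. The number of genes differed by 627 to 835 without each library, 122 with lists of equal length, 170 with a window of 500 bp and 1526 in the better 50%, and the summit position by 23.5 to 31.5 bp without each library. No alternative gave an exact permutation p below 0.33. The replicate number as a block gave the same differences, −22.1 percentage points, 731 genes and 27.2 bp, with an exact permutation p of 0.5, the smallest that 2 pairs allow. The numbers pair nothing that the labels state, and rank deviations of same-numbered libraries correlated with r = 0.0 over 11262 genes.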
